A study of Prunus persica with 8 samples.

Results

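The distal end of chromosome Pp03 of peach (Prunus persica) was examined as a row of neighbouring genes, to ask which of them differed in expression between pillar and standard trees and whether their neighbours differed with them. Genes were selected on position and level. A gene belonged to the segment when it started at or beyond base 23000000 of Pp03 in peach genome version 2 and averaged 0.5 TPM or more across the 8 trees. TPM expresses a gene's transcripts, after correction for gene length, as a share of all transcripts of the library, and in the deposited table the length was that of the whole gene region. The rule kept 639 of the 818 genes annotated in the segment, against 20055 of 26873 genes in the whole table. The segment itself was chosen on this same contrast, because Prupe.3G296900 was far higher in pillar trees, so the differences below describe these 8 trees and serve as no independent test.

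RNA came from the tips of lateral branches of 4 pillar trees (labelled 4, 7, 8 and 10) and 4 standard trees (labelled 7, 8, 9 and 10), untreated mature field-grown trees of 1 segregating F2 population, with 1 library per tree. Pillar trees have upright branches and carry loss-of-function mutations in TAC1 (TILLER ANGLE CONTROL 1), a gene known to widen branch angles. None of the sources used here pairs that gene with an identifier of the table, so it was not examined. Trees of an F2 population also differ from one another at loci unrelated to the trait, and the genotypes of the 8 trees on Pp03 were not analysed here. Whether the branch tips held other tissues in differing amounts was not checked here, as no marker gene could be matched to an annotation by name. In whole tips, fewer cells of a type and less RNA per cell cannot be told apart.

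A segment of a chromosome is inherited as a unit in a cross unless a crossover breaks it, so trees of a population can share or differ in the alleles of a whole run of neighbouring genes. The levels of its genes can then vary together or gene by gene. Many plant gene models also describe long noncoding RNAs (lncRNAs), transcripts that are not translated into protein, and the same stretch of DNA can be a protein gene in one annotation and a lncRNA in another.

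The first of the 639 genes started at 23028461 and the annotation of Pp03 ended at 27312805, a span of 4.28 Mb. The last tested gene before the boundary started at 22987731. On the level threshold, the lowest gene kept had a mean of 0.501 TPM and the highest gene left out had 0.498 TPM. Of the 179 genes left out, 61 were at 0 in all 8 trees. The plus strand held 348 of the 639. The median gene length was 3002 bp in the segment and 3082 bp over all tested genes, and the median level was 15.4 TPM in the segment and 14.3 TPM over all tested genes. By position, 625 of the 639 overlapped a gene of the RefSeq annotation (assembly Prunus_persica_NCBIv2), of which 603 were protein coding and 15 were lncRNAs. The regions of 95 genes (14.9%) overlapped that of another gene, against 10.9% of all tested genes, and reads of such genes could have been counted for either partner.

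The libraries held between 18429259 and 23994336 reads on genes, of which the segment took 3.09% to 3.24% in every tree. Lane 8 carried pillar trees 4 and 7, and lane 6 carried the remaining 6. Pillar tree 4 stood apart across the genome. It was the highest of the 8 trees for 31.8% of the segment's genes and for 31.8% of all tested genes, and its median difference from the standard mean was 0.09 on the log2(TPM + 0.5) scale in the segment and also 0.09 over all tested genes. Pillar trees 7, 8 and 10 had median differences of -0.12, -0.12 and -0.10 in the segment.

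Most genes of the segment had small fold changes between the growth habits. The median log2 fold change, pillar over standard, was -0.08 in the segment and -0.09 over all tested genes, and its median size regardless of sign was 0.14 in the segment and 0.15 over all tested genes. For 600 of the 639 genes (93.9%) the log2 fold change was smaller than 0.5 in either direction, against 92.5% of all tested genes. A positive fold change was found for 205 genes and a negative one for 434, so 32.1% were higher in pillar trees, against 30.7% of all tested genes. Only 5 genes were higher by more than 1 on the log2 scale, and 1, Prupe.3G242900, was lower by more than 1.

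Against this even ground, 3 genes (0.47%) had an adjusted p under 0.05 in limma's moderated test, where the background was 0.12% of genes. The Benjamini-Hochberg adjustment ran over all 20055 genes. The 3 were Prupe.3G237300, Prupe.3G293500 and Prupe.3G296900, all higher in pillar trees. The segment was chosen for Prupe.3G296900, and that gene and Prupe.3G293500 passed the level threshold only through the pillar trees. The count of 3 therefore serves as no test of an excess in the segment. The other 21 of the 24 genes past this threshold lay on Pp02. Of the remaining 1671 tested genes of Pp03, 89 had an unadjusted p of at most 0.05 (5.33%), as did 33 genes of the segment (5.16%) and 4.77% of all tested genes. The study's thresholds (unadjusted p up to 0.05, over 1.5-fold, on average 5 or more reads in both growth habits) were applied to limma's values. The study itself used a different test, in the software CLC. With these thresholds 4 genes passed as higher and 7 as lower, and the background was 1.12% for higher and 1.11% for lower genes. This split also moved with the scaling. It was 4 higher and 2 lower on the RPKM scale, together 0.94% of the segment against 1.88% of all tested genes. After upper quartile scaling it was 6 higher and 5 lower, together 1.72% against 2.23%.

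Complete separation of the trees was counted in the same way. All 4 pillar trees lay above all 4 standard trees for 8 genes, where the background was 1% of genes, and below them for 14 genes, where the background was 1.93%. Together these were 3.44% of the segment's genes, against 2.93% of all tested genes, 2.51% of the rest of Pp03 and 6.45% of Pp02. The segment's share of separated genes was thus near the background. The split by direction depended on the scaling. It was 13 higher and 13 lower on the RPKM scale, together 4.07% of the segment against 3.14% of all tested genes. After upper quartile scaling it was 13 higher and 12 lower, together 3.91% against 3.07%. Between 26 and 27 Mb, 9 of 184 genes were separated (4.89%), and between 23 and 24 Mb 1 of 114 was (0.88%). In other stretches of 1 Mb of Pp03 the share ranged from 0% (2 to 3 Mb, 0 of 113 genes) to 7.41% (13 to 14 Mb, only 2 of 27 genes). Genes higher by more than 2 on the log2 scale numbered 3 in the segment and 52 in the whole table. Of the 52, 31 lay on Pp02 and 5 in the rest of Pp03.

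**Figure D1:**
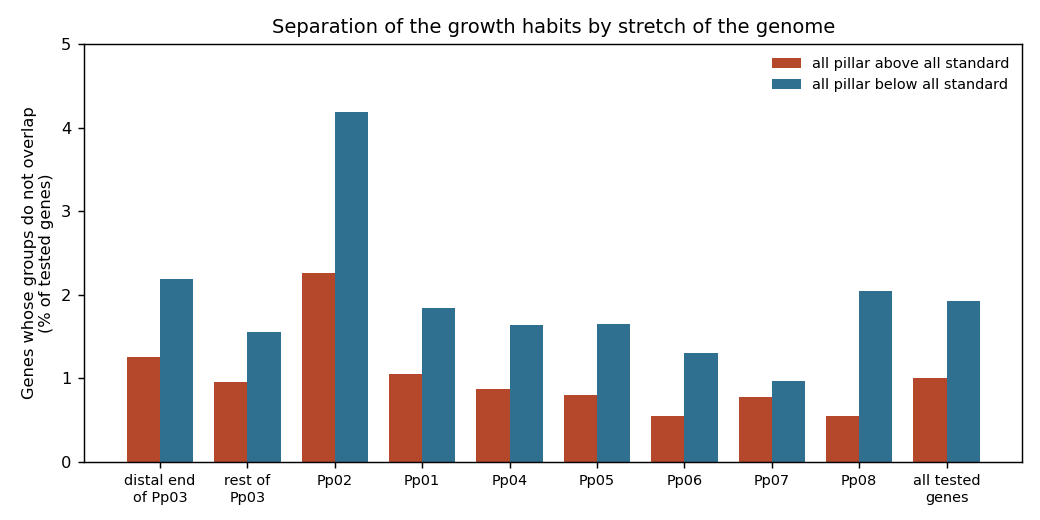
Share of tested genes whose growth habits did not overlap, as a percentage of the tested genes of each stretch, for all pillar trees above all standard trees (left bars) and below them (right bars). The distal end of Pp03 had 1.25% and 2.19%, near the 1% and 1.93% of all tested genes, whereas Pp02 had 2.26% and 4.19%.

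**Figure D2:**
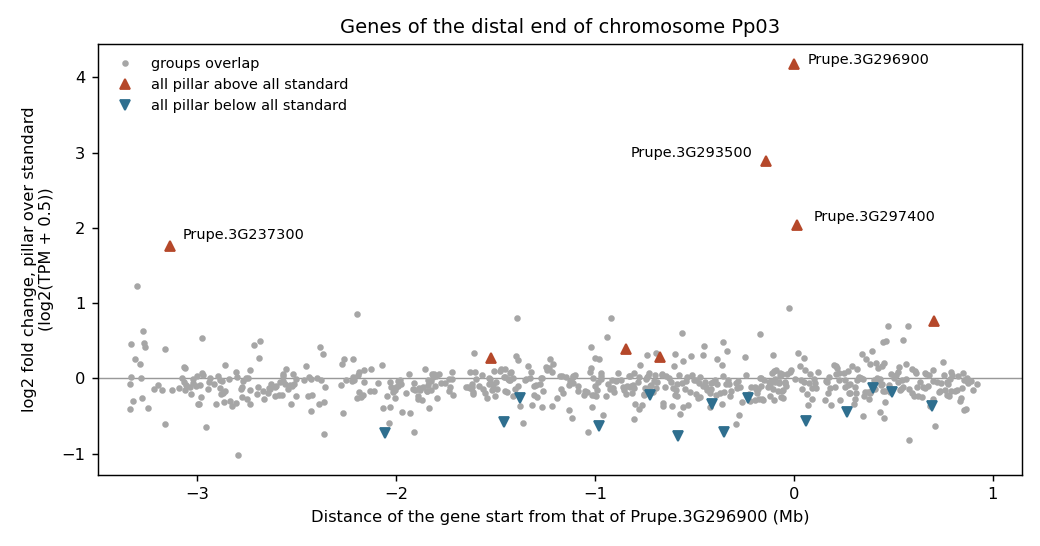
Log2 fold change of each of the 639 genes (pillar over standard, on the log2(TPM + 0.5) scale) against the distance of its start from that of Prupe.3G296900 in Mb. Triangles are the 22 genes whose growth habits did not overlap, and 4 of them stand above 1, of which 3 lie within 160.5 kb.

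Prupe.3G296900 (Pp03, 26369333 to 26372217, plus strand) is the gene for which the segment was picked. The study's gene list describes it as GDAP2, a name taken from the ganglioside-induced differentiation-associated protein 2 of animals, whereas RefSeq has a lncRNA, LOC109948228, over 99.2% of its length, so what it encodes is not settled by these annotations. It had 24.9, 11.9, 12.1 and 14.0 TPM in pillar trees 4, 7, 8 and 10, against 0.386, 0.118, 0.384 and 0.591 TPM in standard trees 7, 8, 9 and 10. Every pillar tree was many times above every standard tree, and pillar tree 4 was the highest. The mean was 15.7 ± 6.2 TPM over the pillar trees and 0.370 ± 0.194 TPM over the standard trees (SD, n = 4 each), a ratio of 42.5. The means rested on 392 reads in pillar and 9.75 reads in standard trees. The log2 fold change was 4.18 ± 0.28 (SE), and the gene passed the level threshold only through the pillar trees. It was 3.94 without pillar tree 4 and 3.98 among the 6 trees of lane 6.

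Prupe.3G293500 (26229314 to 26236520, plus strand) lies 140 kb before it. RefSeq places a lncRNA, LOC109948234, over 65.8% of the gene. It had 3.18, 3.48, 3.64 and 3.42 TPM in pillar trees 4, 7, 8 and 10, against 0, 0.0316, 0 and 0.0887 TPM in standard trees 7, 8, 9 and 10. The 4 pillar trees were close to each other, and the standard trees were at or near 0. In reads, the mean was 214.5 in pillar trees, and the standard trees held 0, 2, 0 and 6 reads. A count of 0 allows up to 3 reads, and this limit covers counting error only. The log2 fold change was 2.89 ± 0.18 (SE, limma adjusted p = 0.0002). Its size depended on how values near 0 are treated, from 1.90 on the RPKM scale to 7.31 with voom on reads, but it was positive and past the threshold in both. The gene passed the level threshold only through the pillar trees, so it could enter the test only with a difference, and it was not tested where 5 mean reads were asked of both growth habits. Because standard trees had a mean under 5 reads, the gene failed the study's thresholds as applied here. It is not in the study's list, and the reason for that was not checked.

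Prupe.3G297400 (26387103 to 26389822, plus strand) starts 17.8 kb after the start of Prupe.3G296900. In RefSeq it is not a gene of its own but lies within a longer protein-coding gene, LOC18782949, that also covers Prupe.3G297500 and Prupe.3G297600. It had 5.0, 0.907, 1.38 and 1.16 TPM in pillar trees 4, 7, 8 and 10, against 0.0820, 0.0418, 0 and 0.0392 TPM in standard trees 7, 8, 9 and 10. All pillar trees were higher, with pillar tree 4 far above the other 3. The reads were 114, 19, 34 and 30 in pillar trees and 2, 1, 0 and 1 in standard trees. This gene, too, passed the level threshold only through the pillar trees. The log2 fold change of 2.04 ± 0.41 (SE) did not pass, with an adjusted p of 0.302 from limma, and was 1.6 without pillar tree 4, with an adjusted p of 0.064. Over the alternatives tried its adjusted p ranged from 0.064 to 0.942.

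Prupe.3G297500 and Prupe.3G297600, also under LOC18782949, did not show this separation. Prupe.3G297500 had 9.52, 4.81, 4.94 and 5.13 TPM in pillar trees 4, 7, 8 and 10, against 5.45, 4.57, 3.60 and 4.73 TPM in standard trees 7, 8, 9 and 10 (log2 fold change 0.33 ± 0.23 SE, limma adjusted p = 0.902). Prupe.3G297600 had 15.6 to 46.3 TPM in pillar and 16.8 to 25.0 TPM in standard trees. Pillar tree 4 was the highest of the 8 trees in these 2 gene models and in Prupe.3G297400.

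Prupe.3G237300 (23234461 to 23239298, plus strand) lies 3.13 Mb before Prupe.3G296900, near the start of the segment. The study's list describes it as an ankyrin repeat family protein, a class that binds other proteins through short repeated helices, and RefSeq has the protein-coding LOC18783198 there. It had 17.7, 11.3, 13.9 and 16.6 TPM in pillar trees 4, 7, 8 and 10, against 3.59, 3.74, 4.90 and 3.90 TPM in standard trees 7, 8, 9 and 10. The lowest pillar tree was above the highest standard tree, and the gene had between 156 and 764 reads in each tree. Means were 14.9 ± 2.9 TPM over the pillar trees and 4.03 ± 0.59 TPM over the standard trees (SD, n = 4 each), and the log2 fold change was 1.75 ± 0.17 (SE, limma adjusted p = 0.0051). Among the 6 trees of lane 6 the log2 fold change was 1.80.

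**Figure D3:**
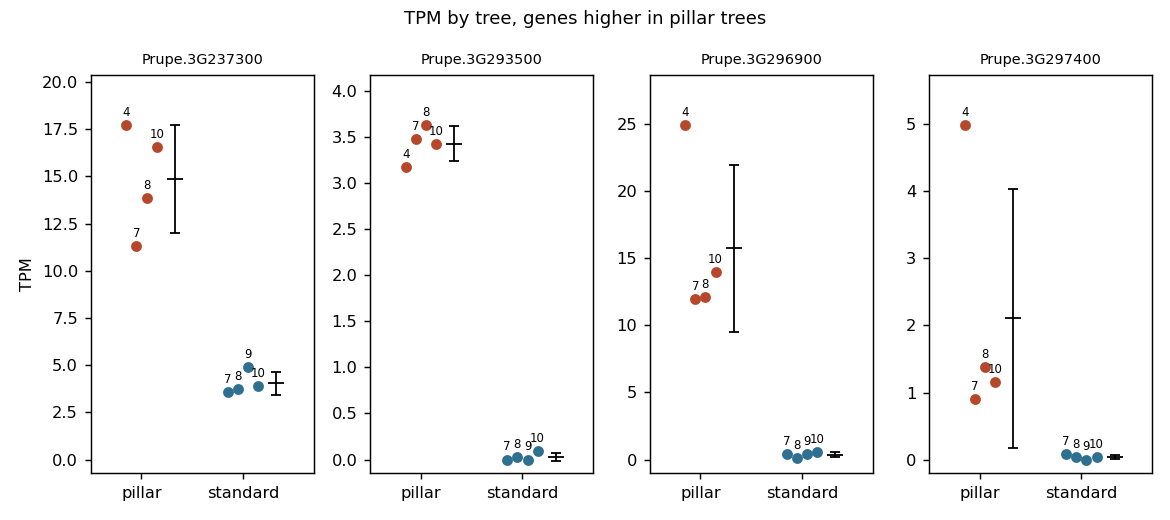
TPM by tree for the 4 genes that were higher in pillar trees by more than 1 on the log2 scale with no overlap, pillar trees left and standard trees right. Points are trees with their numbers, and bars give the mean and SD of 4 trees. Prupe.3G293500 has pillar trees within 3.18 to 3.64 TPM, whereas Prupe.3G297400 has pillar tree 4 at 5.0 TPM above the other pillar trees.

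Between the 3 genes that lie close together, nearly all others were even. From the start of Prupe.3G293500 to the end of Prupe.3G297400, 160.5 kb hold 40 genes, of which 34 passed the level threshold and 3 were at 0 in all trees. The other 31 of the 34 had a median log2 fold change of -0.05, with a range of -0.29 to 0.93. None of the 31 was separated between growth habits, where the background was 2.93% of genes. For 30 of the 31 the size was within 0.35. Small fold changes were also the rule over all tested genes, of which 92.5% were smaller than 0.5 in size. The exception was Prupe.3G296600, a pectin lyase-like protein gene of the study's list, in a family that cuts the pectin of plant cell walls. It had 55.5, 10.9, 25.3 and 12.0 TPM in pillar trees 4, 7, 8 and 10, against 13.7, 8.44, 13.8 and 8.12 TPM in standard trees 7, 8, 9 and 10. Levels in pillar trees 4 and 8 exceeded those of all standard trees, while pillar trees 7 and 10 lay among them, and the log2 fold change of 0.93 ± 0.48 (SE) had an adjusted p of 0.902 from limma.

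The genes directly beside Prupe.3G293500 and Prupe.3G296900 had small fold changes. Prupe.3G293400 ended 5.43 kb before Prupe.3G293500 and had a log2 fold change of -0.02. Prupe.3G293600 started 1.65 kb after it and had a log2 fold change of -0.12. Prupe.3G296800, 10.9 kb before Prupe.3G296900, was a weak gene with 0.569 ± 0.088 TPM over the pillar trees and 0.492 ± 0.106 TPM over the standard trees (SD, n = 4 each). Prupe.3G297000, which starts 1.35 kb after its end on the same strand, had 45.7, 37.3, 23.8 and 28.8 TPM in pillar trees 4, 7, 8 and 10, against 35.4, 33.3, 27.1 and 37.9 TPM in standard trees 7, 8, 9 and 10. Its trees overlapped fully, and the log2 fold change was -0.01 ± 0.20 (SE).

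A little farther out, Prupe.3G296200, Prupe.3G296400, Prupe.3G296700 and Prupe.3G297900 had log2 fold changes of -0.11, 0.06, 0.08 and -0.02, smaller than their standard errors of 0.24, 0.15, 0.13 and 0.14. Prupe.3G237000, directly before Prupe.3G237300, was named after its value was seen. It had 12.6, 5.57, 7.17 and 7.39 TPM in pillar trees 4, 7, 8 and 10, against 11.7, 11.4, 14.8 and 11.3 TPM in standard trees 7, 8, 9 and 10. Its log2 fold change of -0.61 met the study's thresholds as lower, with pillar tree 4 among the standard trees and the other pillar trees below them. Around Prupe.3G237300 the 10 nearest genes, 5 on either side, ranged from -0.61 to 0.39 with a median of -0.11. None of the 10 was separated, where the background was 2.93% of genes.

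**Figure D4:**
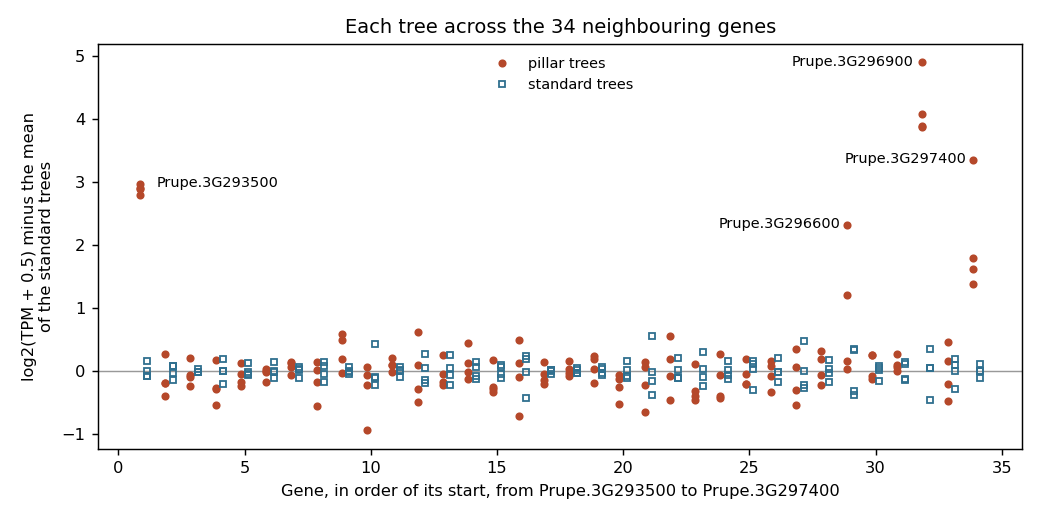
Level of each tree (log2(TPM + 0.5) minus the mean of the standard trees) for the 34 genes from Prupe.3G293500 to Prupe.3G297400 in order of their start, with filled circles for pillar and open squares for standard trees. Pillar trees stand clear of standard trees at Prupe.3G293500, Prupe.3G296900 and Prupe.3G297400, and at Prupe.3G296600 only some of them do.

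The remaining separated genes differed by less. The 14 that were lower in pillar trees had log2 fold changes between -0.77 and -0.13, and the 8 that were higher lay between 0.27 and 4.18. None of the 14 passed the adjusted threshold in limma, on log2(TPM + 0.5) or with voom, and 10 of the 14 had an unadjusted p of at most 0.05. The full list of 22 was added to the named genes after their values were seen.

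Prupe.3G284400 (25786034 to 25789009) came nearest to the threshold. The study's list describes it as a zinc-binding dehydrogenase family oxidoreductase and places it in its plastid category. It had 30.5, 30.1, 28.7 and 30.9 TPM in pillar trees 4, 7, 8 and 10, against 47.6, 59.9, 54.4 and 45.6 TPM in standard trees 7, 8, 9 and 10. The pillar trees were within a narrow band, below every standard tree. The log2 fold change was -0.77 ± 0.11 (SE, limma adjusted p = 0.058). With no filter on low values the adjusted p was 0.049, and over the other alternatives it ranged up to 0.285.

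Prupe.3G253900 (24314921 to 24317206) is described as an HXXXD-type acyltransferase, in a family that joins acyl groups to plant metabolites. It had 37.0, 48.3, 40.0 and 40.3 TPM in pillar trees 4, 7, 8 and 10, against 61.5, 78.3, 59.0 and 77.8 TPM in standard trees 7, 8, 9 and 10. The highest pillar tree was below the lowest standard tree, with a log2 fold change of -0.73 ± 0.14 (SE, limma adjusted p = 0.246). Prupe.3G302400 (26635374 to 26639539) had 34.6 to 44.6 TPM in pillar and 53.7 to 57.5 TPM in standard trees, a log2 fold change of -0.45 ± 0.11 (SE, limma adjusted p = 0.524).

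Prupe.3G275500 was at 2.61 to 4.19 TPM in pillar and 4.71 to 5.32 TPM in standard trees. Prupe.3G289600, which RefSeq calls a pseudogene, was at 1.99 to 3.84 TPM in pillar and 4.26 to 5.97 TPM in standard trees. Prupe.3G298600 and Prupe.3G265300 had log2 fold changes of -0.56 and -0.58, Prupe.3G312300 and Prupe.3G288200 of -0.37 and -0.34. The other 5 lower genes, Prupe.3G267200, Prupe.3G291700, Prupe.3G281100, Prupe.3G308400 and Prupe.3G305700, lay between -0.26 and -0.13.

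Among the separated genes that were higher, Prupe.3G312700 (27076936 to 27080178) is described as an NAD(P)-binding Rossmann-fold protein, a class of enzymes that use NAD or NADP as a cofactor. It had 17.5, 14.5, 26.1 and 21.9 TPM in pillar trees 4, 7, 8 and 10, against 10.3, 11.5, 14.2 and 9.93 TPM in standard trees 7, 8, 9 and 10. Pillar tree 7 and standard tree 9 nearly met, and the log2 fold change was 0.75 ± 0.20 (SE, limma adjusted p = 0.701). Prupe.3G278300, Prupe.3G282200 and Prupe.3G263800 had log2 fold changes of 0.38, 0.28 and 0.27. Prupe.3G278300 was highest in pillar tree 4 with 48.6 TPM, while the other pillar trees had 23.1 to 26.8 TPM and the standard trees 21.4 to 22.9 TPM.

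**Figure D5:**
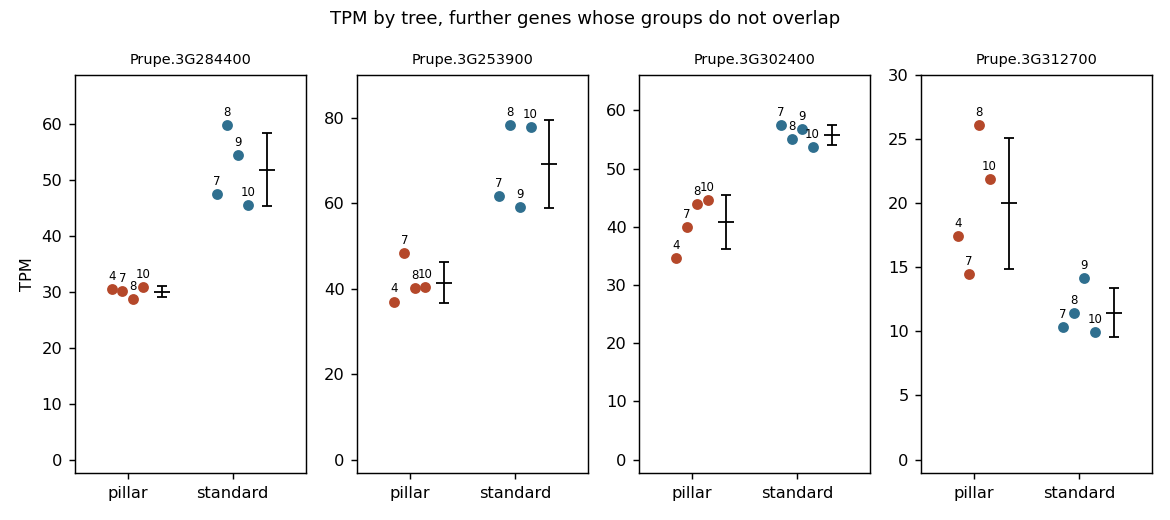
TPM by tree for 4 further genes whose growth habits did not overlap, pillar trees left and standard trees right, with the mean and SD of 4 trees as bars. Prupe.3G284400, Prupe.3G253900 and Prupe.3G302400 were lower in pillar trees and Prupe.3G312700 was higher, with pillar tree 7 at 14.5 TPM just above standard tree 9 at 14.2 TPM.

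The study's gene list held 15 of the 639 genes of the segment, against 630 of all 20055 tested genes. Of the 15, 12 were higher and 3 lower in pillar trees by fold change, with a median of 0.69. The study also reported more higher than lower genes in its whole list. The study chose that list on these same trees, so its direction is no independent evidence. In limma, only 2 of the 15 had an adjusted p under 0.05, Prupe.3G237300 and Prupe.3G296900, and 9 had an unadjusted p of at most 0.05. On limma's values, 7 of the 15 met the study's thresholds. In its unknown category, which held 7 of the 15, 5 genes were higher and 2 were lower.

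Of the others, Prupe.3G235300 (O-methyltransferase 1, in the study's secondary metabolism category) had 1.75, 4.28, 3.83 and 4.42 TPM in pillar trees 4, 7, 8 and 10, against 1.43, 0.278, 2.63 and 1.11 TPM in standard trees 7, 8, 9 and 10. Pillar tree 4 fell among the standard trees, and the log2 fold change was 1.23 ± 0.43 (SE, limma adjusted p = 0.902). Prupe.3G307800, a MADS-box transcription factor gene of a family that sets meristem and floral organ identity, had 16.7 to 24.2 TPM in pillar and 11.3 to 18.2 TPM in standard trees. Prupe.3G245100 (CONSTANS-like 2, related to a day-length regulator of Arabidopsis) had 35.4 to 62.9 TPM in pillar and 26.4 to 40.6 TPM in standard trees.

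The jasmonate and cell wall genes of the list varied mainly between pillar trees. Prupe.3G239900, allene oxide cyclase 4 of jasmonate synthesis, had 604, 145, 155 and 199 TPM in pillar trees 4, 7, 8 and 10, against 110, 201, 160 and 174 TPM in standard trees 7, 8, 9 and 10. Without pillar tree 4 its levels lay in the same range in both growth habits. Prupe.3G276500, a galacturonosyltransferase-like gene of pectin synthesis, had 6.98, 3.37, 8.67 and 2.42 TPM in pillar trees 4, 7, 8 and 10, against 1.82, 3.17, 2.13 and 3.28 TPM in standard trees 7, 8, 9 and 10, with pillar trees 4 and 8 above the rest.

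Prupe.3G251900, a malectin and receptor-like kinase gene that RefSeq calls a pseudogene, had 1.27 to 6.47 TPM in pillar and 0.885 to 2.23 TPM in standard trees. Prupe.3G309900, of the Ole e 1 and extensin family, had 38.4 to 111 TPM in pillar and 33.0 to 58.6 TPM in standard trees. Prupe.3G285000 had 0.241 to 3.94 TPM in pillar and 0.366 to 1.08 TPM in standard trees, so its pillar trees spanned the whole range of the standard trees.

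As the strongest pair of separated genes overlapped lncRNAs, the 15 genes of the segment whose best RefSeq match was a lncRNA were counted after that was seen. Of these 9 had a positive and 6 a negative fold change, where 30.7% of all tested genes had a positive one. The median log2 fold change was 0.08, against -0.08 over the 603 with a protein-coding match. The 15 include the pair that prompted the count, and both of that pair passed the level threshold only through the pillar trees. The count is therefore no test of lncRNA genes as a class. Besides Prupe.3G293500 and Prupe.3G296900, Prupe.3G276200 had an unadjusted p of at most 0.05 from limma (log2 fold change 0.55 ± 0.21 SE, limma adjusted p = 0.902), with 1.85 to 2.91 TPM in pillar and 1.08 to 1.93 TPM in standard trees. The other 12 lay between -0.12 and 0.60.

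In several genes single trees stood apart rather than a growth habit. Prupe.3G307500, a short gene of 207 bp that overlaps another gene, was at 0 in pillar tree 10 and at 1.65 TPM in standard tree 8, while the other 6 trees had 12.7 to 26.3 TPM. Prupe.3G234900 had 44.0 TPM in standard tree 7 and 133.8 TPM in pillar tree 4, against 337 to 678 TPM in the remaining trees. Prupe.3G281700 had 7.06 TPM in pillar tree 4 and 0.993 to 1.96 TPM in the other trees.

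Some other weakly or unevenly expressed genes did not separate the growth habits. Their fold changes were as large as those of the separated genes under 1 in size on the log2 scale. Prupe.3G242900 had 2.05 to 15.8 TPM in pillar and 8.37 to 24.4 TPM in standard trees, for a log2 fold change of -1.02 ± 0.56 (SE, limma adjusted p = 0.902). Prupe.3G310000 had 10.1, 2.69, 2.92 and 2.38 TPM in pillar trees 4, 7, 8 and 10, against 6.34, 6.19, 7.25 and 8.47 TPM in standard trees 7, 8, 9 and 10. Pillar tree 4 was above all standard trees and the other pillar trees were below all of them, and without pillar tree 4 limma's adjusted p was 0.032, and with all 8 trees it was 0.902. Over the alternatives tried it ranged from 0.032 to 0.9996. Prupe.3G266900, Prupe.3G250200, Prupe.3G256400 and Prupe.3G273900 had log2 fold changes of 0.80, -0.74, -0.71 and -0.71 with standard errors of 0.35 to 0.53.

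The 3 most highly expressed genes of the segment overlapped between growth habits. Prupe.3G287000 had 1409 to 2027 TPM in pillar and 1168 to 1740 TPM in standard trees, Prupe.3G248700 had 974 to 2285 TPM in pillar and 1211 to 1567 TPM in standard trees, and Prupe.3G248600 had 722 to 1376 TPM in pillar and 1011 to 1361 TPM in standard trees. Their log2 fold changes of 0.31, 0.17 and -0.03 compare with standard errors of 0.20, 0.28 and 0.23.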

How the data were processed

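The authors trimmed the single 50-bp reads of 8 branch-tip libraries and mapped them in CLC (peach genome version 2), with several hits allowed for a read. The authors deposited 1 table with TPM per gene and tree. It also holds their own comparison (fold changes, p-values and the larger group mean), which was not used. Each gene has a second row at 0 in all trees, not used either. TPM times gene length gave whole reads within 0.01 of a read for 100% of nonzero values under 10000 reads, so reads were recovered from it for depth and for the minimum of 5 reads.

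The plan foresaw counts. As the table gives TPM, limma 3.58.1 in R 4.3.3 was run on log2(TPM + 0.5) of 20055 genes, with the variance trend, with Benjamini-Hochberg adjustment over all of them. Fold changes on this scale understate those of low genes. The test was checked on simulated data. Positions are those of the table, and RefSeq matches are by largest overlap. Named genes were Prupe.3G296900 with 5 genes on either side, genes of the study's list, the 8 largest and 8 smallest fold changes among genes with at least 5 mean reads in a growth habit, genes past the adjusted threshold, the 5 widest gaps between trees, the 5 genes most like and 3 least like Prupe.3G296900 across trees, and the 3 highest levels. The genes and lists were chosen with earlier results of these data known. Alternatives were other scalings, pseudocounts, filters, voom, lane 6 alone, a tree-number block, each tree left out and, added after seeing the data, no minimum of reads.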

Additional observations from a re-analysis of the deposited data

Results flagged for a closer look

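On the log2(TPM + 0.5) scale, among the 104 groups of 4 trees examined (52 named genes in 2 growth habits), 6 held a tree far from the others, its gap to the nearest tree taking more of the group's range than Dixon's critical value for 4 samples. Chance gives this in about 1 of 20 groups, a rate that does not hold here, since some of the genes were named for a wide gap between trees. On the TPM scale 9 groups were past the same value, 8 of them with pillar tree 4 apart. In 4 of the 6 the tree was pillar tree 4, which was also the highest tree for 31.8% of all tested genes. Its part in these values was not tested.

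Pillar tree 4 was the lowest pillar tree for Prupe.3G234900, with 133.8 TPM and a gap of 0.948 of the range. It was also the lowest for Prupe.3G235300, with 1.75 TPM and a gap of 0.837 of the range. It was the highest pillar tree for Prupe.3G297500, with 9.52 TPM and a gap of 0.908 of the range, and for Prupe.3G310000, with 10.1 TPM and a gap of 0.868 of the range. Pillar tree 8 was the lowest pillar tree for Prupe.3G308400, with 2.27 TPM and a gap of 0.952 of the range. Standard tree 8 was the lowest standard tree for Prupe.3G307500, with 1.65 TPM and a gap of 0.849 of the range.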

How the results depend on the processing

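The genes with an adjusted p under 0.05 numbered 3 under most settings. All 3 remained under every scaling and pseudocount, with voom, within lane 6 and with each tree left out, where 3 to 4 were called. For Prupe.3G296900, on which the segment was chosen, and for Prupe.3G293500 this is no independent support. Both passed the level threshold only through the pillar trees. Prupe.3G293500 could not be called where 5 mean reads in each growth habit were required before the test, since it was then not tested. With no filter on low values Prupe.3G284400 joined them, and without pillar tree 4 Prupe.3G310000 did. Percentages are of the segment, then all tested genes. Genes past the study's thresholds numbered 11 with all trees (1.72%, 2.23%) and 13 with no read minimum (518 of all tested). They numbered 3 at over 2-fold, 6 on the RPKM scale (0.94%, 1.88%) and 39 within lane 6 (6.10%, 5.97%). With a tree left out they numbered 11 to 22, with 22 without pillar tree 4 (3.44%, 3.65%) and 18 without pillar tree 7 (2.82%, 2.18%). Fewer trees separate more easily. Separated genes, 22 with all trees, numbered 189 within lane 6 (29.6%, 28.6%) and 25 to 88 with a tree left out. Their number moved by over 1.5 times without pillar tree 4 (88, 13.8%, 14.0%) or 7 (36, 5.63%, 4.57%). It also did without pillar tree 8 (35, 5.48%, 5.56%) or 10 (35, 5.48%, 5.45%), and without standard tree 7 (40, 6.26%, 6.13%) or 9 (45, 7.04%, 5.23%). The median log2 fold change of the segment stayed between -0.12 and -0.03.

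Trees 7, 8 and 10 of both growth habits share numbers. Their deviations from the group means correlated by 0.287, 0.0964 and -0.0911, so the numbers were read as names and not as a pairing, and not every tree correlated best with its own number. With the tree number as a replicate block, 1 gene had an adjusted p under 0.05 and 35 met the study's thresholds, or 5.48% of the segment, against 5.47% of all tested genes. This contrast rested on trees 7, 8 and 10 alone, with limma adjusted p of 0.092 for Prupe.3G237300 and 0.083 for Prupe.3G293500.

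Among the 52 named genes, directions turned for 10 with small fold changes or single trees apart, none past the threshold. Over the other genes of the segment turns were not counted, and a scaling that shifts all genes alike turns small values. The log2 fold changes that turned on the RPKM scale were those of Prupe.3G248600 (0.00794), Prupe.3G297000 (0.0188) and Prupe.3G297900 (0.0114). With the upper quartile they were Prupe.3G248600 (0.0212), Prupe.3G297000 (0.0319) and Prupe.3G297900 (0.0246). With voom they were Prupe.3G248600 (0.00846), Prupe.3G297000 (0.0191) and Prupe.3G297900 (0.00922). Within lane 6 they were Prupe.3G296200 (0.21), Prupe.3G296400 (-0.0144), Prupe.3G297600 (-0.43) and Prupe.3G297900 (0.11). With the tree-number block they were Prupe.3G281700 (-0.25), Prupe.3G296200 (0.12), Prupe.3G296400 (-0.0219) and Prupe.3G297600 (-0.26).
With a tree left out they were Prupe.3G234900 (-0.36 to 0.95), Prupe.3G248600 (-0.13 to 0.18), Prupe.3G248700 (-0.0111 to 0.40), Prupe.3G281700 (-0.15 to 0.63), Prupe.3G296200 (-0.26 to 0.0527), Prupe.3G296400 (-0.0321 to 0.15), Prupe.3G297000 (-0.17 to 0.14), Prupe.3G297600 (-0.15 to 0.36), Prupe.3G297900 (-0.0926 to 0.10) and Prupe.3G307500 (-1.31 to 0.77).

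Depth limits Prupe.3G293500, Prupe.3G296900 and Prupe.3G297400 in standard trees, which held at most 16 reads of any of them, so the size of their fold changes depends on the pseudocount. Gene lengths include introns, reads matching several places may be shared between copies, and strand was not stated, so overlapping genes cannot be told apart. The genotypes of the trees were not analysed here.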

Other observations

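Among the 179 genes left out for their low level, 2 were also separated between growth habits. Prupe.3G251300 (24121345 to 24121995) had 0.183, 0.399, 0.169 and 0.161 TPM in pillar trees 4, 7, 8 and 10 and was at 0 in all 4 standard trees. Prupe.3G301800 (26606519 to 26609651) had 0, 0.207, 0.316 and 0.134 TPM in pillar trees 4, 7, 8 and 10, against 0.391, 0.726, 0.353 and 0.374 TPM in standard trees 7, 8, 9 and 10. Both were chosen after their values were seen, and at these levels a tree holds few reads of either gene.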
